A study of Mus musculus with 12 samples.

Results

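The genes examined were 10 scaffolds of the postsynaptic density: the membrane-associated guanylate kinases Dlg1, Dlg2, Dlg3 and Dlg4, their partner Dlgap1, and Shank1, Shank2, Shank3, Homer2 and Homer3. They were taken by gene symbol from the deposited count table, in which all 10 of them were found among 18394 genes, and all 10 passed the filter on low counts. Messenger RNA of whole mouse cerebellum was sequenced from 12 libraries, 6 from animals labelled as Crfr1 knockouts made with the deltaalpha6-Cre driver (cKO) and 6 from wild type animals (WT). Crfr1, listed in the table as Crhr1, is a receptor of the stress peptide corticotropin-releasing factor. The driver is named after α6, a GABA-A receptor subunit typical of granule cells. The labels give no strain, age, sex, litter or treatment, and they name no group with the driver alone, so the driver and the receptor loss cannot be told apart.

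The postsynaptic density is the protein meshwork under the membrane of an excitatory synapse. Dlg proteins hold glutamate receptors and potassium channels by their PDZ domains, Dlgap proteins bind the guanylate kinase-like domain of Dlg proteins, Shank proteins bind Dlgap proteins, and Homer proteins link Shank to metabotropic glutamate receptors and to the IP3 receptor of internal calcium stores. In the cerebellum the largest sets of excitatory synapses are those of mossy fibres on granule cells and of parallel fibres on Purkinje cells. Homer3, Shank1 and Shank2 are known chiefly from Purkinje cells, and Shank3 from granule cells.

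Because these genes are paralogs, the longest stretch of identical coding sequence was found for each pair within the Dlg, Shank and Homer families, in GENCODE M21 transcripts (mm10). It reached at most 26 bases in any of the 10 pairs and 15 bases between Homer2 and Homer3. The stretches below show the longest coding identity of 3 pairs. Outside coding sequence it can be longer: over whole transcripts, read on both strands, Dlg1 and Dlg4 each shared at least 1 stretch of 50 bases with 1 other scaffold, and 0.596% of the 50-base stretches of Dlg1 and 1.1% of those of Dlg4 occurred in any other gene. The Dlg2 and Dlg4 stretch lies at chr7:92088599-92088624 and at chr11:70039199-70039224, both on the plus strand and both in coding exons, and its capitals mark the codons of the glycine-leucine-glycine-phenylalanine loop of a PDZ domain. The Shank1 and Shank3 stretch lies at chr7:44316093-44316118 and at chr15:89503180-89503205, on the plus strand. The Homer2 stretch lies at chr7:81624304-81624318 on the minus strand and the Homer3 stretch at chr8:70289420-70289434 on the plus strand. All are read 5′ to 3′.
Dlg2 and Dlg4: GGCCTGGGCTTCaacattgtgggcgg
Shank1 and Shank3: ctgctggacaaggggctggaccccaa
Homer2 and Homer3: agaagctgccaggct

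Library totals ran from 32.3 M to 58.7 M counts in cKO and from 23.8 M to 62.1 M in WT, and each scaffold had between 719 and 26509 counts per library. The 10 scaffolds together took 0.279% to 0.286% of a cKO library and 0.279% to 0.286% of a WT library. Levels are given as CPM, TMM-scaled counts per M counts. Markers of granule cells, the most numerous cerebellar neurons, summed to 9170 to 9920 CPM in cKO and 9500 to 9860 CPM in WT over 19 genes. Of these 4 rose and 6 fell, 52.6% called against 2.64% of all tested genes. The list includes Gabra6 and was chosen with earlier results of these data known. The tested genes were not matched to it in level, so this share is a description. In the other marker lists 2 of 12 microglial genes rose and 0 fell, with all 12 fold changes positive, 1 of 10 genes of unipolar brush and nuclear neurons rose and 2 fell, and 1 of 16 genes of inhibitory interneurons rose and 1 fell, with 13 of 16 fold changes negative. By edgeR and by DESeq2 0 of 14 markers of Bergmann glia and astrocytes, 0 of 15 of oligodendrocytes and 0 of 12 of endothelial and mural cells were called. An unadjusted edgeR p under 0.05 was reached by 3, 2 and 0 of them, against 14.2% of all tested genes. The part of these lists in the level of any scaffold was not tested. Crhr1 (chr11:104132855-104175523) averaged 98.8 ± 6.00 CPM in cKO and 97.6 ± 4.31 CPM in WT, and Gabra6, which encodes the α6 subunit (chr11:42306437-42321072), 623 ± 30.0 CPM in cKO and 813 ± 56.1 CPM in WT (SD, n = 6 each). Which exons the knockout removes is not given in the sources used here, and which cells the driver reached was not measured. Transcripts of cells without the driver would stay in the counts, so whole-gene counts of bulk tissue do not check the genotype label. Gabra6 was called lower in cKO (log2 fold change −0.38, edgeR adjusted p = 1.45e-05). The part of the driver's own locus in that difference was not tested.

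No scaffold passed the test of cKO against WT across all genes, and the libraries of the genotypes overlapped for each of them. Of the 10, 0 were called higher and 0 lower in cKO at an adjusted p under 0.05 (edgeR quasi-likelihood test, Benjamini-Hochberg over 15467 genes), where 2.64% of all tested genes were called, 1.27% higher and 1.38% lower. A count of 0 of 10 is near that share and is no result about the scaffolds. An unadjusted p under 0.05 was reached by 0 of the 10, against 14.2% of all tested genes. Leaving out 1 library moved that count to 1 without cKO replicate 1 or 6 (Dlg2), cKO replicate 5 (Dlg3) or WT replicate 5 (Shank3), and to 2 without WT replicate 2 (Dlg2 and Dlg3), and it was 0 without any 1 of the other 7. DESeq2 also called 0 of the 10, against 3.63% of genes, and the genotypes separated without overlap for 0 of the 10, against 2.09% of genes. The 95% intervals hold for this fit and for each scaffold alone, and are not widened for the number of scaffolds. Their lowest bound was a fall of 7.97% (log2 −0.12, Dlg2) and their highest a rise of 8.89% (log2 0.12, Shank3). In the alternative fits described below the log2 estimates themselves ran from −0.089 to 0.12, so larger changes are not excluded. In the fit of all 12 libraries the log2 fold changes of cKO over WT ran from −0.059 to 0.053, 6 negative and 4 positive. Their median was −0.014 against −0.0003 over all tested genes, and their median size was 0.019 against 0.0445. The tested genes include many far scarcer than the scaffolds and were not matched in level, so the smaller size is no result about the scaffolds. Each library is a whole cerebellum, so fewer cells of a type and less RNA per cell cannot be told apart, and opposite changes in different cell types would not be seen.

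**Figure D1:**
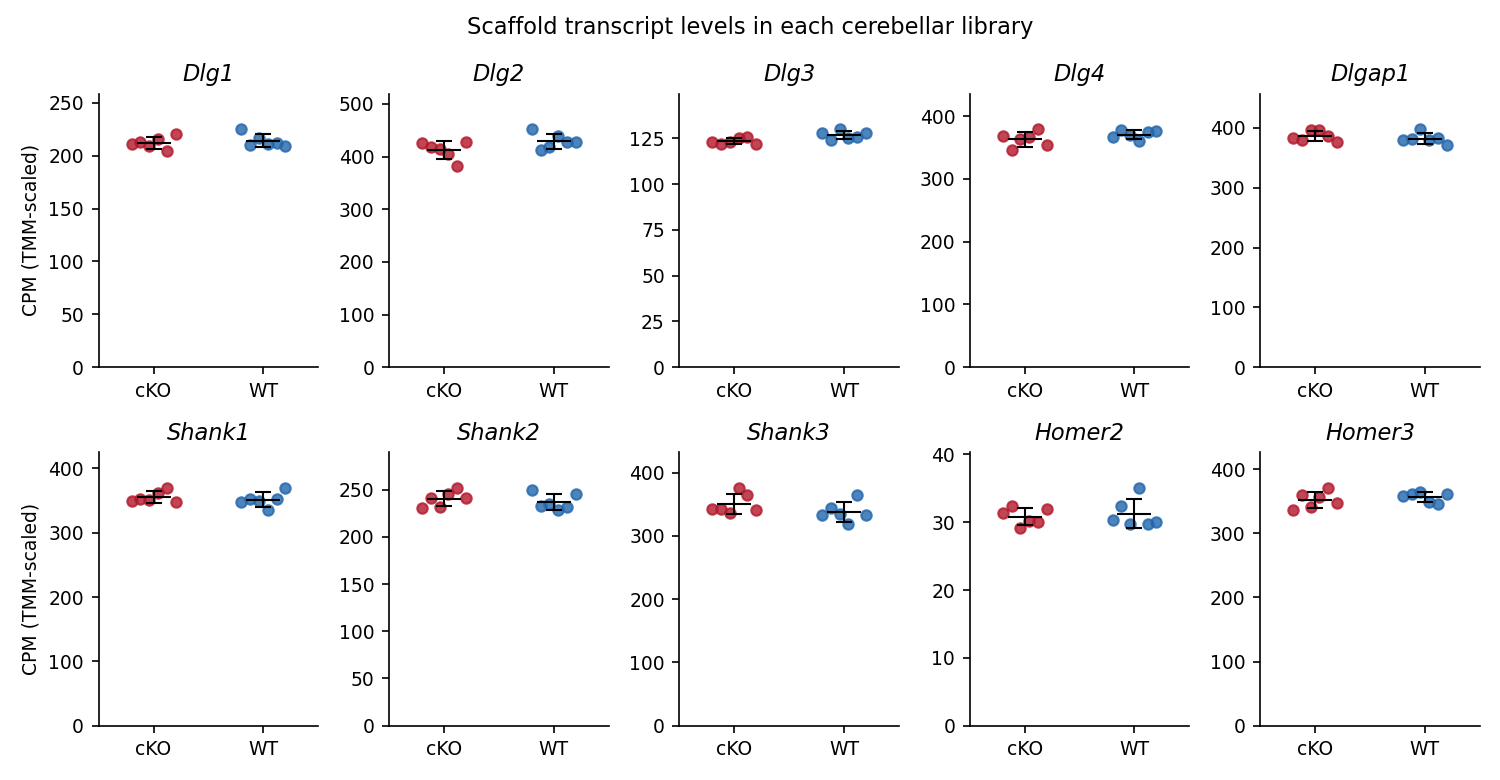
CPM (TMM-scaled, axes from 0) of each scaffold in the 6 cKO and 6 WT libraries, with a bar for the mean and whiskers of 1 SD. The 2 genotypes overlap in every panel, and Dlg3 has the smallest spread, with 122 to 126 CPM in cKO and 124 to 130 CPM in WT.

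Among the Dlg genes all 4 fold changes were negative and 0 were called. Dlg2 encodes PSD-93, the Dlg protein best known from Purkinje cells, and spans chr7:90476672-92449247 (mm10, as all positions here). It measured 382 CPM at the lowest, 416 at the median and 427 at the highest in cKO, against 412, 427 and 452 CPM in WT. All 6 cKO libraries lay below the WT median, but the ranges overlapped. On the log2 scale cKO differed from WT by −0.059 (SE 0.029, interval −0.12 to 0.0016; edgeR adjusted p = 0.368), and a two-sided exact permutation test of the log2 level gave p = 0.0844. The smallest p that test can give with 6 libraries a group is 0.00216.

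Dlg3 encodes SAP102, which carries glutamate receptors to the membrane early in synapse formation, and lies at chrX:100767722-100818410. Its levels were 122, 123 and 126 CPM at the lowest, median and highest cKO library and 124, 127 and 130 CPM in WT. Again all 6 cKO libraries lay below the WT median, but the ranges overlapped. Its log2 change was −0.040, with an SE of 0.020 and an interval from −0.083 to 0.0022, the edgeR adjusted p was 0.383, and the exact permutation p was 0.0130, the smallest of the 10 scaffolds. Its coefficient of variation was 1.17% in cKO and 1.73% in WT, below every other scaffold. The edgeR test moves each gene's variance towards that of other genes, and the permutation test, which is not adjusted here for the number of genes, does not.

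Dlg4 encodes PSD-95, known in cerebellum from granule cells and from the basket cell terminals around the Purkinje cell axon. It lies at chr11:70016942-70047522, between Gabra6 and Crhr1. It averaged 363 ± 11.4 CPM in cKO and 370 ± 6.47 CPM in WT (SD, n = 6 each), and 5 of 6 cKO libraries were below the WT median. The interval of its change ran from −5.40% to 1.36% (edgeR adjusted p = 0.620). Dlg1 encodes SAP97, which acts in receptor trafficking and lies at chr16:31663443-31875129. It averaged 212 ± 5.37 CPM in cKO and 214 ± 6.10 CPM in WT (SD, n = 6 each), with 3 cKO libraries on either side of the WT median and an interval from −4.31% to 2.76% (edgeR adjusted p = 0.885).

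Dlgap1 encodes the link between Dlg and Shank proteins and spans chr17:69969073-70821413. It measured 376, 384 and 397 CPM at the lowest, median and highest cKO library and 371, 381 and 398 CPM in WT. The ranges nearly coincided, and the interval of its change ran from −2.25% to 4.41% (log2 fold change 0.015, SE 0.023, edgeR adjusted p = 0.836; exact permutation p = 0.465).

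The 3 Shank genes had positive fold changes, and 0 were called. Shank3 (chr15:89499623-89560261) measured 336, 343 and 376 CPM at the lowest, median and highest cKO library and 319, 333 and 365 CPM in WT. All 6 cKO libraries were above the WT median, but the highest WT library, at 365 CPM, stood above most of them. The log2 change was 0.053, with an SE of 0.033 and an interval from −0.016 to 0.12 (edgeR adjusted p = 0.503; exact permutation p = 0.162). Without the 4 libraries highest in forebrain transcripts, described below, it was 0.12 (SE 0.035) and still not called (edgeR adjusted p = 0.186).

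Shank1 (chr7:44310253-44360572) averaged 355 ± 8.61 CPM in cKO and 351 ± 11.1 CPM in WT, and Shank2 (chr7:144001928-144424494) 240 ± 7.95 CPM in cKO and 237 ± 8.58 CPM in WT (SD, n = 6 each). The intervals of their changes were −2.49% to 4.81% for Shank1 and −2.69% to 5.53% for Shank2 (edgeR adjusted p = 0.842 and 0.824). For both genes the range of one genotype lay largely within that of the other. The summed level of 21 tested Purkinje cell markers was 12800 to 14000 CPM in cKO and 13400 to 13900 CPM in WT.

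Homer3 (chr8:70282827-70294361) measured 337, 352 and 371 CPM at the lowest, median and highest cKO library, against 345, 359 and 365 CPM in WT, an overlap in which the cKO range enclosed that of WT. Its change had an interval from −4.89% to 2.48% (log2 fold change −0.019, SE 0.026, edgeR adjusted p = 0.814; exact permutation p = 0.459). Exons of Ddx49, which encodes an RNA helicase on the opposite strand, cover 25.4% of the exon bases of Homer3, and although the library kit keeps strand, per the labels, whether the counting used it is not given in the sources used here. If it did not, reads of the shared bases cannot be told apart. Ddx49 itself averaged 22.6 ± 1.25 CPM in cKO and 22.3 ± 0.755 CPM in WT (SD, n = 6 each; edgeR adjusted p = 0.902). Homer2 (chr7:81600481-81707527) was the scarcest scaffold, with 29.2, 30.8 and 32.4 CPM at the lowest, median and highest cKO library and 29.7, 30.2 and 35.1 CPM in WT. It had the widest interval, −6.94% to 5.07% (edgeR adjusted p = 0.913; exact permutation p = 0.745).

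**Figure D2:**
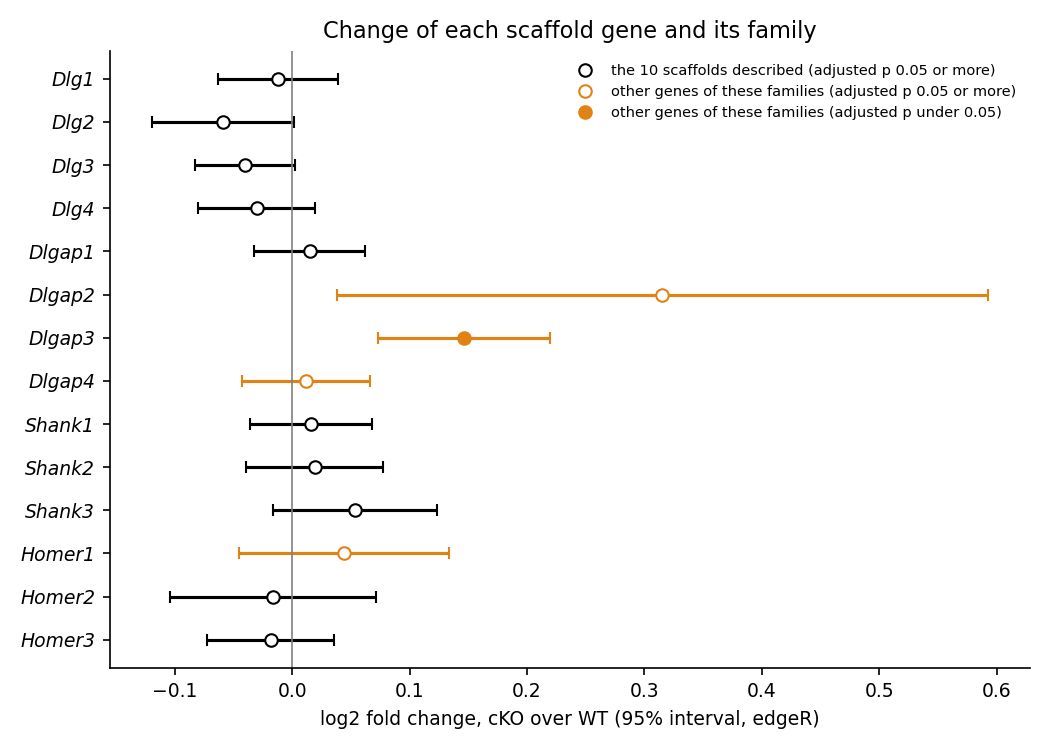
Log2 fold change of cKO over WT with its 95% interval (edgeR) for the 10 scaffolds (black) and the 4 other genes of the Homer and Dlgap families (orange), filled where the adjusted p was under 0.05. Every black interval includes 0 and lies within −0.12 and 0.12, and Dlgap3 is the one filled point.

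In the authors' deposited table, whose log2 fold changes appear shrunken towards 0 and whose direction was read from 400 genes called in both analyses, all with the same sign, 0 of the 10 scaffolds had an adjusted p under 0.05. The share over all genes of the authors' deposited table was 3.71%. Their adjusted p ran from 0.380 to 0.941 in the authors' deposited table. The signs there matched those above for all 10, with Dlg2 at −0.053 (SE 0.028) and Shank3 at 0.048 (SE 0.030) in the authors' deposited table. Both analyses rest on the same libraries.

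Levels between genes were compared per kb of transcript. Homer3 was the highest and Homer2 the lowest of the 10 in every library by either measure of length. With the length of all annotated exons, Homer3 averaged 102 ± 3.68 CPM per kb in cKO and 104 ± 2.33 in WT, followed by Shank3 (38.2 ± 1.73 in cKO, 36.8 ± 1.70 in WT), Shank1 (33.8 ± 0.819 in cKO, 33.4 ± 1.05 in WT), Dlg4 (27.4 ± 0.859 in cKO, 28.0 ± 0.489 in WT) and Dlg2 (25.3 ± 1.02 in cKO, 26.4 ± 0.882 in WT; SD, n = 6 each). Shank2, Dlgap1, Dlg3 and Dlg1 lay between 19.8 and 22.3 CPM per kb in both genotypes, and Homer2 at 2.44 ± 0.0976 in cKO and 2.47 ± 0.168 in WT (SD, n = 6 each). Dlg4 and Dlg2, Shank2 and Dlgap1, and Dlgap1 and Dlg3 were neighbours in this order whose library ranges overlapped in both genotypes.

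The middle of the order depended on the length used, a choice added after the data were seen. With the longest protein-coding transcript, Dlg4 (57.3 ± 1.80 CPM per kb in cKO, 58.5 ± 1.02 in WT), Dlg2 (52.7 ± 2.12 in cKO, 54.9 ± 1.84 in WT) and Dlgap1 (53.8 ± 1.22 in cKO, 53.3 ± 1.24 in WT; SD, n = 6 each) stood above Shank3, at 47.6 ± 2.16 in cKO and 45.9 ± 2.11 in WT. These 3 genes have annotated exons that add up to 13.3, 16.3 and 17.9 kb but longest coding transcripts of 6.33, 7.81 and 7.17 kb. Which transcripts the cerebellum uses was not measured here.

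**Figure D3:**
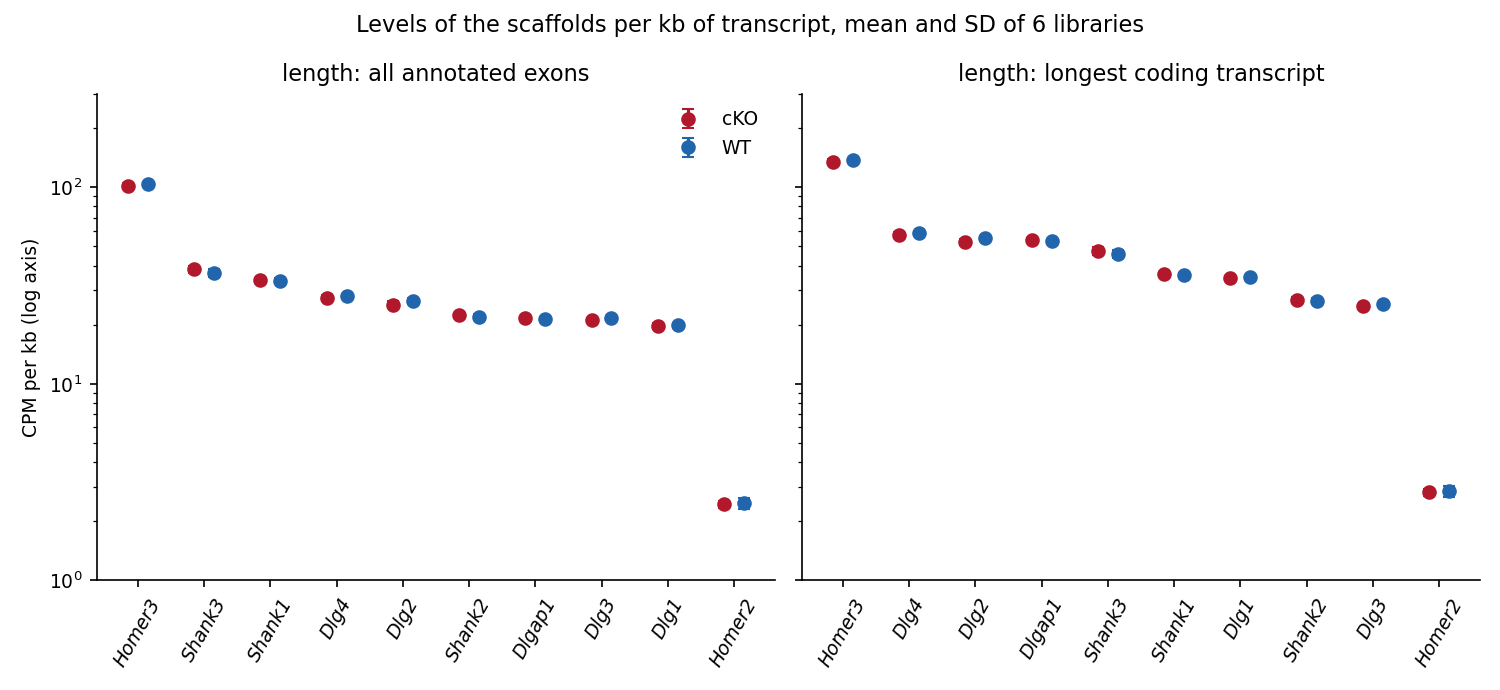
CPM per kb (log axis; mean and SD of 6 libraries) of the 10 scaffolds in cKO and WT, ordered by level, with the length taken from all annotated exons (left) or from the longest coding transcript (right). Homer3 leads and Homer2 is last in both panels, while Dlg4, Dlg2 and Dlgap1 move up on the right.

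Family make-up is given as shares of the summed per-kb level, as a description with no test. Homer3 gave 95.1 ± 0.310% of the total of the 3 Homer genes in cKO and 95.2 ± 0.275% in WT, with Homer1, the gene of the activity-induced short form Homer1a, at 2.67 ± 0.231% in cKO and 2.56 ± 0.163% in WT (all annotated exons; SD, n = 6 each). Shank3 gave 40.5 ± 0.656% of the Shank total in cKO and 39.9 ± 1.19% in WT, Shank1 35.8 ± 0.461% in cKO and 36.2 ± 0.656% in WT, and Shank2 23.7 ± 0.385% in cKO and 23.9 ± 0.796% in WT. Among the Dlg genes no single member dominated: their shares lay between 21.1% (Dlg1) and 29.3% (Dlg4) in cKO and between 20.8% and 29.1% for the same genes in WT. By the longest coding transcript they lay further apart, from 14.7% (Dlg3) to 33.8% (Dlg4) in cKO and from 14.7% to 33.7% in WT. Of the 4 Dlgap genes, Dlgap1 gave 30.9 ± 0.633% in cKO and 32.0 ± 0.825% in WT, and Dlgap3 37.8 ± 0.936% in cKO and 35.6 ± 1.38% in WT (SD, n = 6 each). With the longest coding transcript Dlgap1 came first, at 44.8% in cKO and 45.8% in WT, and Dlgap3 gave 23.6% in cKO and 22% in WT.

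Of the family genes that are not among the 10, Dlgap3 was called and the others were not. Dlgap3, another partner of Dlg and Shank proteins, measured 114, 120 and 125 CPM at the lowest, median and highest cKO library and 102, 106 and 120 CPM in WT. All 6 cKO libraries were above the WT median, and the ranges overlapped through the highest WT library. It rose by 10.7%, a log2 change of 0.15 with an SE of 0.035 (edgeR adjusted p = 0.0275). Homer1 (0.044, SE 0.043), Dlgap4 (0.012, SE 0.026) and the scarce Dlgap2, with 2.02 ± 0.326 CPM in cKO and 1.58 ± 0.281 CPM in WT (SD, n = 6 each) and a log2 change of 0.32 (SE 0.13), had edgeR adjusted p of 0.710, 0.896 and 0.275.

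Whether Dlgap3 changed differently from Dlgap1 was tested on the ratio of the genes in each library, a comparison chosen after the values were seen. The log2 ratio of Dlgap3 to Dlgap1 averaged −1.70 ± 0.062 in cKO and −1.83 ± 0.088 in WT (SD, n = 6 each), a difference of 0.13 with a two-sided exact permutation p of 0.0173, or 0.0519 adjusted over the 3 ratios to Dlgap1. The difference between these genes does not pass that adjustment. The Dlgap3 call was lost in 7 of the 12 fits that left out 1 library (without cKO replicate 1, 2 or 4 or WT replicate 1, 3, 4 or 6, edgeR adjusted p 0.0516 to 0.0773).

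Markers of forebrain moved in part with genotype. Of 18 such markers 16 were in the table and 11 were tested, and the summed level of these 11 was 17.1 to 32.6 CPM in cKO and 13.1 to 22.7 CPM in WT. Of the 11, 4 had an unadjusted edgeR p under 0.05, and 2 rose and 0 fell by edgeR and by DESeq2. Over all tested genes 14.2% had such an unadjusted p, edgeR called 2.64% and DESeq2 called 3.63%. Among the forebrain markers that rose was Ddn, a postsynaptic protein of forebrain dendrites, at 4.81 ± 3.64 CPM in cKO and 1.45 ± 0.966 CPM in WT (SD, n = 6 each; edgeR adjusted p = 0.0260), a gene chosen after its values were seen. Its level was 12.1 CPM in cKO replicate 1 and 2.35 to 4.13 CPM in the other cKO libraries, a range that held WT replicate 5 at 3.28 CPM. The cKO mean thus lies above every cKO library but replicate 1. Of the 11 fold changes 9 were positive, with a median log2 of 0.32. Of the dopamine receptors of striatal neurons, Drd1 averaged 0.283 CPM in cKO and 0.327 CPM in WT, and Drd2 1.45 CPM in cKO and 1.12 CPM in WT (edgeR adjusted p = 0.654 and 0.571). The Drd1 and Drd2 means are counts per M of the library total, without TMM scaling.

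The 4 libraries highest in the mean log2 level of these markers were cKO replicates 1, 2 and 3 and WT replicate 5. With that mean as a covariate the log2 change of Dlgap3 was 0.080 (SE 0.038), with 3 surrogate variables 0.076 (SE 0.041), and without the 4 libraries 0.17 (SE 0.035), at edgeR adjusted p of 0.510, 0.597 and 0.0205. With a midbrain and brainstem score as covariate it was 0.14 (edgeR adjusted p = 0.0939). In the first 3 of these fits the scaffold genes stayed uncalled, with log2 fold changes from −0.086 to 0.12. How much forebrain transcripts contribute to the level of any scaffold was not tested.

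**Figure D4:**
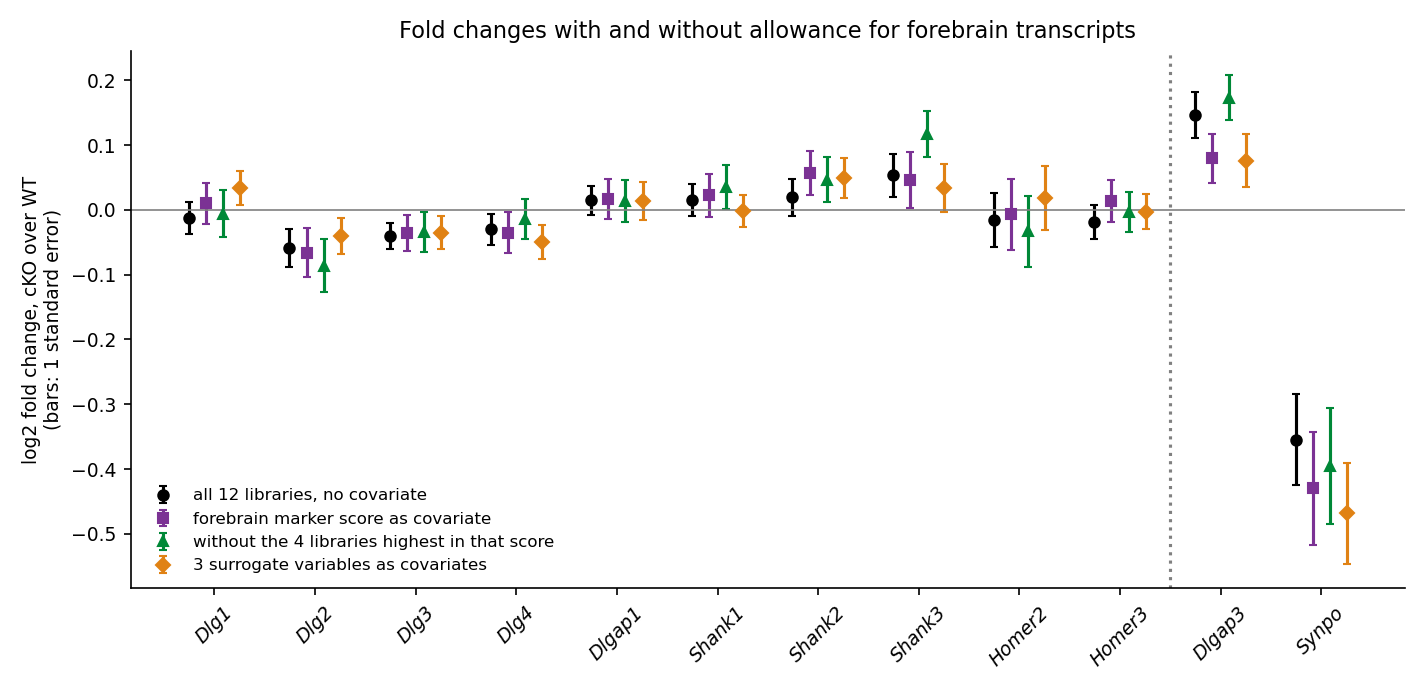
Log2 fold change of cKO over WT (edgeR, bars of 1 standard error) for the 10 scaffolds and, right of the dotted line, Dlgap3 and Synpo, in the fit of all 12 libraries and in 3 fits that allow for forebrain transcripts or hidden variation. The scaffolds stay between −0.086 and 0.12, Dlgap3 is at 0.15 in the first fit and between 0.076 and 0.17 in the others, and Synpo stays at or below −0.35.

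Among other scaffolds and adaptors of excitatory synapses, 41 of 44 listed genes were tested: 1 rose (Dlgap3) and 2 fell, a share called of 7.32% against 2.64% of all genes. Synpo encodes synaptopodin, an actin-associated protein of the spine apparatus. It measured 14.7, 16.4 and 19.2 CPM at the lowest, median and highest cKO library and 17.9, 21.9 and 22.7 CPM in WT, and fell by 21.8% (−0.35 on the log2 scale, SE 0.071; edgeR adjusted p = 0.00758), with all 6 cKO libraries below the WT median. Slc9a3r1, a PDZ adaptor also called NHERF1, fell by 11.5%, to 48.5 ± 2.93 CPM in cKO, against 54.8 ± 2.41 CPM in WT (SD, n = 6 each; edgeR adjusted p = 0.0158). Its log2 change was −0.18 in the fit of all libraries, −0.14 with the forebrain covariate, −0.13 with the midbrain and brainstem covariate, −0.13 with surrogate variables, −0.11 without the 4 libraries and −0.15 without WT replicate 3. It lost its call in these 5 of 21 alternatives, at edgeR adjusted p of 0.282, 0.118, 0.131, 0.417 and 0.0505. The median log2 fold change of the list was 0.010.

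Signalling enzymes of the postsynaptic density had 4 genes that rose and 1 that fell among 40 tested, with a median log2 fold change of 0.0048. The share called was 12.5%, against 2.64% of all tested genes. Nos1, the neuronal nitric oxide synthase that binds the PDZ domain of PSD-95, measured 236, 253 and 258 CPM at the lowest, median and highest cKO library, against 200, 212 and 216 CPM in WT. No cKO library overlapped a WT library, and it rose by 19.5% (0.26 on the log2 scale, SE 0.028; edgeR adjusted p = 1.46e-05). Pak1, a kinase that acts on spine actin, rose by 9.52% to 556 ± 20.7 CPM in cKO, against 508 ± 8.27 CPM in WT. Sipa1l1, a Rap regulator that binds PSD-95, rose by 9.11%, to 122 ± 4.57 CPM in cKO, against 112 ± 2.03 CPM in WT (SD, n = 6 each; edgeR adjusted p = 0.00527 for Pak1 and 0.00932 for Sipa1l1).

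Camk2b, the β subunit of CaM kinase II, rose by 8.06% (edgeR adjusted p = 0.0355), to 995 ± 41.1 CPM in cKO, against 920 ± 27.9 CPM in WT (SD, n = 6 each). It lost its call in 7 of the 12 fits that left out 1 library (without cKO replicate 3, 4 or 5 or WT replicate 1, 2, 4 or 6, edgeR adjusted p 0.0570 to 0.0864). Dclk1, a microtubule-binding kinase, fell by 10.6%, to 444 ± 18.5 CPM in cKO, against 497 ± 13.8 CPM in WT (SD, n = 6 each; edgeR adjusted p = 0.00220). With the forebrain covariate Pak1, Sipa1l1, Camk2b and Dclk1 had edgeR adjusted p of 0.0530, 0.156, 0.262 and 0.101, with log2 fold changes of 0.14, 0.12, 0.11 and −0.13, against 0.13, 0.13, 0.11 and −0.16 without it. With surrogate variables the adjusted p of these 4 genes were 0.0506, 0.215, 0.152 and 0.0722, and without the 4 libraries 0.0431, 0.261, 0.0692 and 0.0394. With the midbrain and brainstem covariate Sipa1l1 and Camk2b were not called (log2 changes of 0.11 and 0.13, edgeR adjusted p = 0.0638 and 0.0536).

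Of 26 actin and cortactin partners of Shank proteins 0 rose and 0 fell by edgeR and by DESeq2, and 2 had an unadjusted edgeR p under 0.05, with a median log2 fold change of 0.027. A further list of 25 genes was drawn up for adhesion proteins with PDZ ligands for Dlg proteins. It also holds the potassium channel genes Kcna4 and Kcnj10, and whether each member has such a ligand was not checked. Of the 25, 0 rose and 1 fell, 4.0% called, near the 2.64% of all tested genes. DESeq2 called 0 higher and 2 lower, and 8 had an unadjusted edgeR p under 0.05. Over all tested genes 14.2% had an unadjusted edgeR p under 0.05. The gene that fell by edgeR was Lrrc4, a leucine-rich synaptic adhesion protein also called NGL-2, to 89.3 ± 3.12 CPM in cKO, against 97.9 ± 3.25 CPM in WT (SD, n = 6 each), a log2 change of −0.13 with an SE of 0.028 (edgeR adjusted p = 0.0126). Its log2 change was −0.13 with the forebrain covariate, −0.11 with the midbrain and brainstem covariate and −0.12 without the 4 libraries, where it lost its call (edgeR adjusted p = 0.173, 0.0904 and 0.262).

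**Figure D5:**
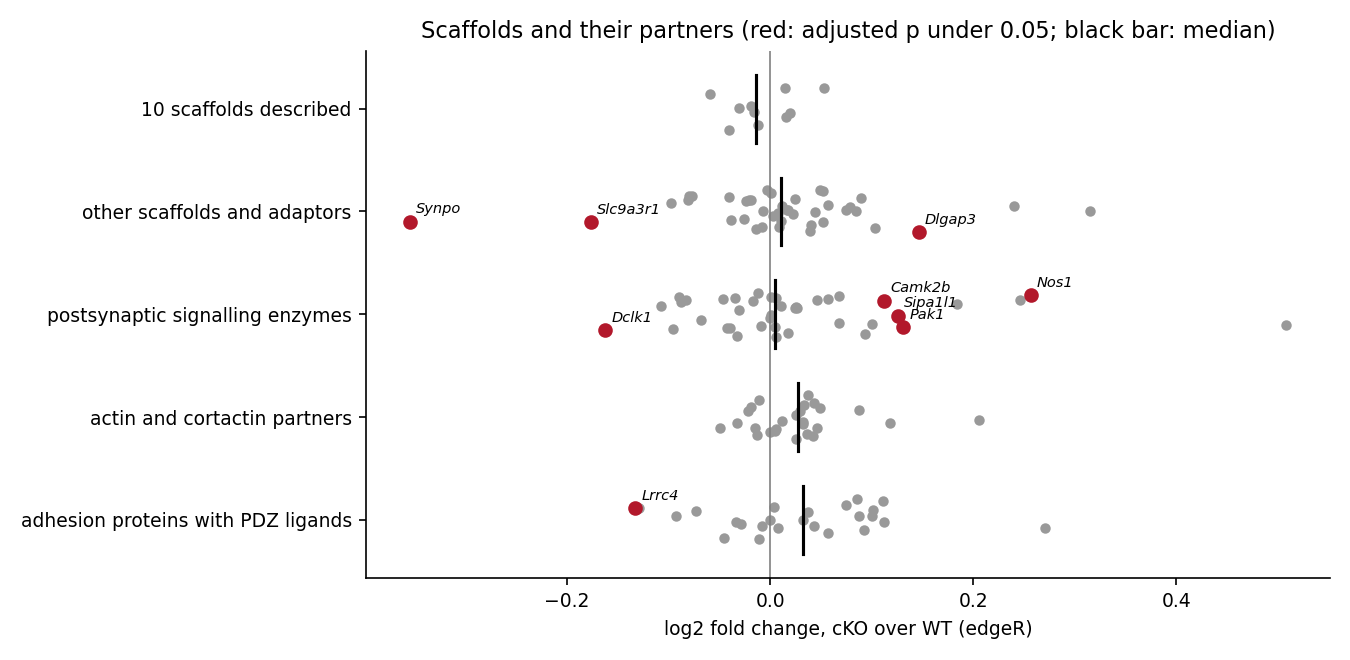
Log2 fold change of cKO over WT (edgeR) for each tested gene of the 10 scaffolds and of 4 lists of their partners, with called genes in red and the list median as a black bar. The scaffolds lie between −0.059 and 0.053 with none called, and the medians of the 4 lists lie between 0.0048 and 0.033. The list of adhesion proteins also holds the potassium channel genes Kcna4 and Kcnj10.

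Within a genotype the scaffolds varied little from library to library. Their coefficients of variation ran from 1.17% (Dlg3) to 4.55% (Shank3) in cKO and from 1.73% (Dlg3) to 6.79% (Homer2) in WT, with medians of 3.22% in cKO and 3.0% in WT. The 10347 genes with a mean of at least 10 CPM had medians of 4.15% in cKO and 3.78% in WT. These genes were not matched to the scaffolds in level, so the medians are a description.

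Whether scaffolds varied together across libraries was tested for 45 pairs, of which 0 passed after adjustment. With the genotype means removed, the log2 levels of Shank2 and Homer3 had the highest correlation (Pearson r = 0.726, permutation p = 0.0106, adjusted p = 0.200; Spearman rho = 0.650, permutation p = 0.0320, adjusted p = 0.223; n = 12 libraries). Without the 2 libraries farthest from the median of Shank2, r was 0.713. Dlg4 and Shank1 had r = 0.684 (permutation p = 0.0108, adjusted p = 0.200; rho = 0.643, permutation p = 0.0337, adjusted p = 0.223; r = 0.698 without the 2 libraries farthest from the median of Dlg4). Dlg2 and Dlg4 had the lowest, r = −0.678 (permutation p = 0.0276, adjusted p = 0.200; rho = −0.615, permutation p = 0.0468, adjusted p = 0.223; r = −0.515 without the 2 libraries farthest from the median of Dlg2). The highest and lowest pairs above are those by Pearson r. By Spearman rho Shank1 and Shank3 were highest, at 0.825 (permutation p = 0.00457, adjusted p = 0.188). Their Pearson r was 0.565 (permutation p = 0.0699, adjusted p = 0.236), and 0.839 without the 2 libraries farthest from the median of Shank1. Lowest by rho were Dlg2 and Shank1, at −0.755 (permutation p = 0.00836, adjusted p = 0.188), with a Pearson r of −0.625. Of the 45 pairs, 24 had a positive and 21 a negative r. All levels come from the same libraries and share their scaling.

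The genes closest in profile to the 3 scaffolds with the smallest p were found among 13821 genes with a mean of at least 1 CPM, by the root mean square difference of log2 levels scaled to mean 0 and SD 1 over the 12 libraries. Nearest to Dlg2 were Ept1 (0.317), Dhx36 (0.330) and Xiap (0.340). Nearest to Dlg3 were Rims4 (0.376), Fry (0.385) and Lgi2 (0.389), and nearest to Shank3 Gadd45gip1 (0.379), Kcnj12 (0.465) and Fgf1 (0.467). Of these 9 genes 1 was called, Lgi2, which was also listed as a marker of inhibitory interneurons, at 46.0 CPM in cKO and 53.0 CPM in WT (log2 fold change −0.21, edgeR adjusted p = 0.00666). A nearest gene is always found among so many, so these distances are a description.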

How the data were processed

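Per the file headers, the deposited tables hold unnormalised counts for each gene symbol and a DESeq2 comparison with a mean normalised signal, a log2 fold change, a test score and p-values. STAR, DESeq2 and mm10 are named in the submitters' processing notes. The libraries were strand-specific, per the labels' protocols; which tool counted reads, with what annotation and whether by strand, is not given in the sources used here. The 12 columns carry the identifier of 1 sample each.

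Tests used edgeR 4.0.16 under R 4.3.3. The filter filterByExpr left 15467 genes. Library sizes were TMM-scaled, and genotype was tested by glmQLFit and glmQLFTest with Benjamini-Hochberg adjustment at 0.05. Standard errors and 95% intervals came from the test statistic. Exact permutation tests ran over 924 assignments of log2 CPM (prior count 1). Alternatives used DESeq2 1.42.0, sva 3.50.0, other filters, thinned counts, marker scores as covariates, and fewer libraries. The edgeR script was tested on simulated data. Positions and lengths came from GENCODE M21 (mm10).

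The scaffolds and gene lists were chosen with earlier results of these data known. Genes named are the 10 scaffolds, Crhr1 and Gabra6, called members of the partner lists, and the 3 nearest profiles of the 3 scaffolds with the smallest p. Others, such as those of the Homer and Dlgap families and Ddx49, were added after their values were seen. Replicate numbers only follow the order of deposit. Replicate pairs differed by more than counting noise (chi-square per degree of freedom at least 2.68). The design text names 6 cerebella per genotype and nothing more about the animals, so p-values measure the spread between these libraries. Values of some marker genes are not reported here.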

Additional observations from a re-analysis of the deposited data

Results flagged for a closer look

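Among 24 genes examined in each genotype, 48 groups in all, 1 library stood apart from its group, and chance flags about 1 group in 20. WT replicate 1 had 524 CPM of Dclk1, where the other 5 WT libraries had 487 to 497 CPM. The gap was 0.725 of the range of the group, above Dixon's 95% critical value for 6 values. All WT libraries remained above the cKO libraries, at 427 to 472 CPM, with or without it. Of the 20 groups of the 10 scaffolds, 0 were flagged. Ddn was not among the 24 genes. For Ddn, cKO replicate 1 stood at 12.1 CPM, and the other cKO libraries ran from 2.35 to 4.13 CPM.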

How the results depend on the processing

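In 21 alternatives, 0 of 210 fits of a scaffold gave an adjusted p under 0.05. The smallest was 0.186 (Shank3 without the 4 libraries highest in forebrain score), and log2 fold changes ran from −0.089 to 0.12. The counts of scaffolds called higher and lower were 0 in each. The sign turned in some alternatives for Dlg1, Shank1, Homer2 and Homer3, which were not called in any. The count of all called genes, 409, ran from 272 to 459 when 1 library was left out, with 272 without WT replicate 3. It was 138 with the forebrain score as covariate, 189 with surrogate variables and 157 without the 4 libraries; the last fit has fewer samples, and the cause of the others was not tested. Synpo, Nos1 and Gabra6 kept their calls in all 21 alternatives, and Dlgap3 in 11. No paired analysis was possible because the labels give no replicate numbers that the genotypes share. With at least 719 counts per scaffold and library, Homer2 had the shallowest counts and the widest interval.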
